A study of Mus musculus with 1119 samples.

Results

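Ly6d encodes a small membrane-anchored protein of the Ly6 family, and its transcript split the early matrix cells of the regrowing mouse hair follicle into a pair of sets. The cells were chosen by their own Ly6d value at postnatal day 25 to 27 (P25 to P27), on 3 plates whose titles carry the letters mat. A cell was called Ly6d-positive at 1 TPM (transcripts per 1000000) or more and Ly6d-negative below that, among cells with 2000 or more genes detected at 1 TPM. There were 31 Ly6d-positive and 24 Ly6d-negative cells on plate 914mat, 24 and 51 on 915mat, and 34 and 32 on 920mat. Together 89 cells were Ly6d-positive, which is 45.4% of those kept, and 3 more cells of these plates had too few genes. The whole series holds 1119 cells. The Ly6d values chose the sets, so they are given as a description.

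The Ly6d-positive and the Ly6d-negative cells shared a strain, a tissue and the 3 plates. They were sorted from back skin of mice of both sexes with the strain name Lgr5-eGFPiresCreER;R26-tdTomato, in which GFP and an inducible Cre are made where Lgr5 is active. GFP, tdTomato, integrins α6 and b1, CD34 and Pcadherin were the listed sort markers, and the labels do not say which gate gave the mat plates. The authors' annotation calls all of these cells matrix cells of the transit-amplifying kind (TACs). Comparison cells came from the same strain, on 1 plate lettered b and 1 lettered hg of P21, on an hg plate of P23 to P24 and on hg plates of P25 to P27, and from Lhx2-GFP mice of the CD1 strain at P30 (5 plates of basal hair bulb). Libraries were made by Smart-seq2, which copies the whole transcript of a sorted cell in its own well. Each sample is 1 cell and the labels name no animal, so each set counted as 1 sample, no test was made, and the 3 plates show technical spread only.

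In early growth the hair germ makes the matrix, dividing cells at the follicle's base whose offspring become hair shaft and inner root sheath. The upper follicle, the infundibulum and isthmus, is a separate compartment that opens to the skin surface and shares a differentiation programme with the epidermis. Ly6d is a marker of differentiating stratified epithelium. GATA6 is a transcription factor of the upper follicle and the sebaceous duct, and Krt79, a keratin, marks cells of the same region.

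Relative to Ly6d-negative cells, Ly6d-positive cells had higher levels of most expressed genes of the upper-follicle, epidermal-differentiation and MHC class I lists, and lower levels of most of the hair germ, hedgehog and FGF response lists. Some genes stand in several lists, so the lists are not independent. Gli1, Dusp6, Lgr5 and Msx2 of the hair germ list are also in the hedgehog, FGF, WNT and matrix lists, in that order. Lef1 is in the matrix and WNT lists, and Gata6 in those of the upper follicle and of differentiation factors. The largest differences were in Clca3a2, a secreted protein of the calcium-activated chloride channel regulator family, at 4.88 log2 units, and in Crip1, a LIM-domain protein, at -4.06. Differences here are of mean log2(TPM + 1), Ly6d-positive minus Ly6d-negative, taken within each plate and averaged over the 3 plates with equal weight. Because of the added 1, they understate the change of genes at low level.

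Clca3a2 and Defb6, a beta-defensin with antimicrobial activity, were listed at 0 in all Ly6d-negative cells. The promoter of Defb6 is shown for that reason, as the 250 bases before the gene's start on the gene's strand, from RefSeq on GRCm38.p6. The motif AGATAA, a core bound by GATA factors, was searched on either strand (TTATCT on the other), and capitals mark the match. It stands at chr8:19225228-19225477 on the plus strand.
Defb6: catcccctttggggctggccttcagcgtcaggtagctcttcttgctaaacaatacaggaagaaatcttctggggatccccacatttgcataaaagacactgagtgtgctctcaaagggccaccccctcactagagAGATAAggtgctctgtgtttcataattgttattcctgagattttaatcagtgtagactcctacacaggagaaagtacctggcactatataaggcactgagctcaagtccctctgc
The Defb6 promoter held the motif once. Of 32851 promoters, each taken singly, 9.99% held it. For the named genes a match in any promoter entry of the gene counted, so that share and the counts below differ in unit. Of the 12 genes with the largest higher differences, 9 had an entry and 3 of those held the motif, Defb6 among them. Of the 12 with the largest lower differences, 10 had an entry and 2 held it (Crip1 and Gja1). The motif was chosen after the genes were known, and a match is a run of letters, not a binding site.

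Among Ly6d-positive cells Ly6d itself (chr15:74762056-74763620, minus strand) ran from 2.72 to 2420 TPM with a median of 596. It was listed at 0 in every Ly6d-negative cell, so no cell lay between 0 and 2.72 TPM. The values just inside the threshold were 2.72, 3.73, 3.85, 5.10, 5.66 and 8.39 TPM, and those just outside it were all 0. Of the positive cells, 6 lay under 10 TPM, 14 between 10 and 100, and 69 at 100 or more. The share of Ly6d-positive cells was 56.4% on plate 914mat (31 of 55), 32% on 915mat (24 of 75) and 51.5% on 920mat (34 of 66).

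Ly6d was found at every age, in fewer cells than on the mat plates. At P21, 5.13% of the cells of the b plate were positive (2 of 39, exact binomial 95% interval 0.627 to 17.3) and 19.1% of those of the hg plate (13 of 68, 10.6 to 30.5). The share was 14.7% on the hg plate of P23 to P24 (10 of 68, 7.28 to 25.4) and 6.25% on the hg plates of P25 to P27 (1 of 16, 0.158 to 30.2). On the mat plates it was 45.4% (89 cells, 38.3 to 52.7). In the P30 hair bulb it was 6.33% (24 cells, 4.10 to 9.28), and 13 of those 24 cells came from 1 plate, P2-1, at 16% of its cells. All such intervals cover the counting of cells only, and age, sort and plate cannot be told apart between these groups.

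**Figure D1:**
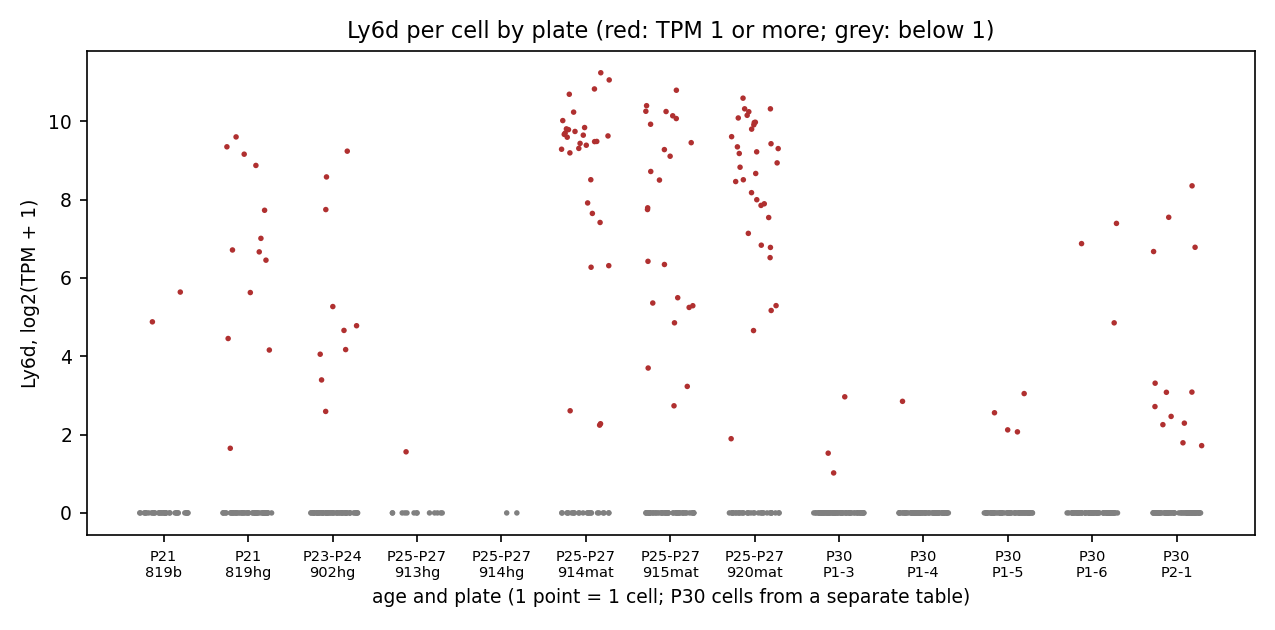
Ly6d in each cell as log2(TPM + 1), by age and plate, with red points at 1 TPM or more and grey points below. On the 3 mat plates most red points lie above 100 TPM (69 of 89), and every grey point lies at 0.

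The genes detected per cell, at 1 TPM or more, had a median of 5358 in Ly6d-positive cells and 5673 in Ly6d-negative cells, and this median was lower in the Ly6d-positive cells of each plate. Ribosomal RNA took a median of 56.2% of TPM in Ly6d-positive cells and 54.9% in Ly6d-negative cells, and spike-in RNA 5.85% and 6.73%. Y-linked Kdm5d was seen in 55.1% of Ly6d-positive and 59.8% of Ly6d-negative cells, from a pool of both sexes. Read depth is unknown, since TPM does not record it.

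Of 8431 genes expressed in at least 30% of either set, 4.22% were higher by 1 or more with the same sign in all 3 plates, and 5.01% (422 genes) were lower by as much. The median of all expressed genes was -0.16. With an adjustment for genes detected per cell, 56.8% of the genes past this size were higher, against 45.8% without it, and 3.42% of genes were lower. When cells with at least 3 markers of differentiated epidermis were left out, 2.25% of genes were higher and 5.63% lower. Without plate 915mat 7.93% were lower, and the cause was not tested. A gene could count as expressed through the set in which it is high, so the counts and medians of lists below describe the expressed members and no more.

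Of the genes with the largest higher differences, Clca3a2 ran from 0 to 876 TPM with a median of 89.5 in Ly6d-positive cells, and was 0 in all Ly6d-negative cells. It was seen in 61 of 89 Ly6d-positive cells (68.5%, 57.8 to 78) and in none of the Ly6d-negative cells (0%, 0 to 3.39). Its difference was 6.02, 4.19 and 4.42 on plates 914mat, 915mat and 920mat. Tmem45a, a membrane protein of keratinocytes, ran from 0 to 470.3 TPM with a median of 71.2 in Ly6d-positive cells, against 0 to 137.9 with a median of 0 in Ly6d-negative cells. The sets overlapped for Tmem45a, as 83.1% of Ly6d-positive and 21.5% of Ly6d-negative cells had it (difference 4.42). Anxa8, an annexin that binds membranes and calcium, had medians of 503 and 13.1 TPM in Ly6d-positive and Ly6d-negative cells, with highest values of 1534 and 1447 TPM (4.18).

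Dmkn and Sbsn are neighbouring genes for secreted proteins of the differentiating epidermis. Dmkn was seen in 84.3% of Ly6d-positive cells (75.0 to 91.1) against 43% of Ly6d-negative cells (33.5 to 52.9), with a difference of 4.12, and Sbsn in 79.8% against 46.7%, with 3.33. Krt80, a keratin of differentiating epithelia, gave 3.72 and was in 83.1% against 22.4%. Gltp, a glycolipid transfer protein, gave 3.49, and Ccl27a, a chemokine of keratinocytes that draws T cells to skin, gave 3.31. Ccl27a differed most between plates, at 5.49 on 914mat against 2.18 and 2.27 on the other plates. RSEM divides reads among similar genes, so the values of genes with close relatives (Clca3a2, Ccl27a, the H2-Q genes, Skint3 and Dsg1a) are uncertain.

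**Figure D2:**
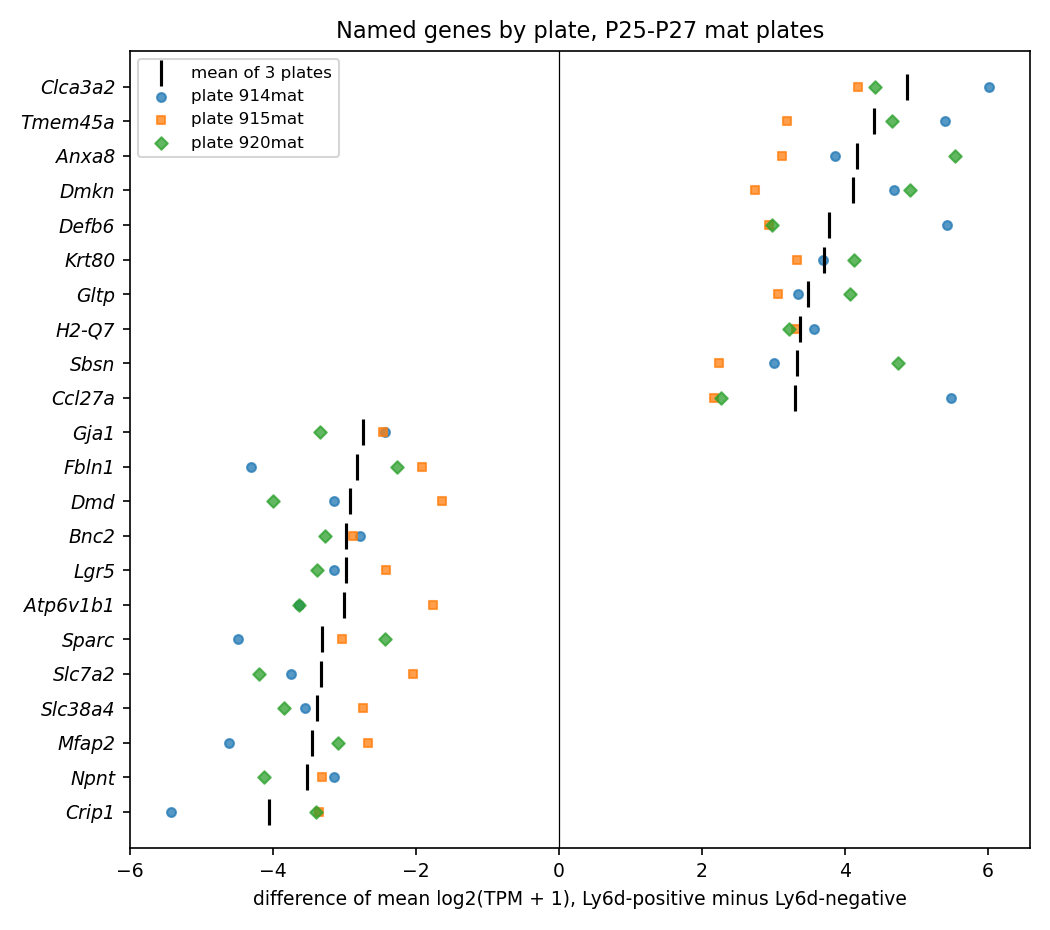
Difference of mean log2(TPM + 1), Ly6d-positive minus Ly6d-negative cells, for 10 of the 12 genes with the largest higher differences and the 12 with the largest lower ones, as a bar for the mean of the 3 plates and a point for each plate. All points of a gene lie on the same side of 0, and plate 915mat often lies nearest to 0.

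Most expressed members of the upper-follicle list were higher in Ly6d-positive cells, with a median difference of 1.96 over 8 expressed of 10, and 1.69 to 2.42 by plate. Of the 8, 6 were higher by 1 or more in all plates (Defb6, Krt79, Plet1, Gata6, Cst6 and Defb1), beside 4.22% of all expressed genes. Defb6, Krt79, Plet1, Gata6 and Defb1 reached 30% of cells only in the Ly6d-positive set, so the filter favoured higher members and a positive median. Defb1, like Defb6, was at 0 in all Ly6d-negative cells. Krt79 ran from 0 to 5600 TPM in Ly6d-positive cells, in 31 of 89 of them, and from 0 to 31.3 TPM in Ly6d-negative cells, in 5 of them (2.85). Defb6 reached 17006 TPM in Ly6d-positive cells, in 32 of 89 of them. Gata6 reached 140.6 TPM and was in 42 of 89 Ly6d-positive cells (47.2%, 36.5 to 58.1), against 3.41 TPM at most and 1 Ly6d-negative cell (0.935%, 0.0237 to 5.10), with a difference of 2.18. Plet1, a surface protein of the isthmus, gave 2.64. Krt17, a keratin of follicle epithelium, was the exception at -0.95, with 0.38 on plate 915mat.

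The label matrix was checked cell by cell against these markers. At least 3 upper-follicle markers were present in 64 of 89 Ly6d-positive cells (71.9%, 61.4 to 80.9) and in 20 Ly6d-negative cells (18.7%, 11.8 to 27.4). At least 3 markers of matrix and hair shaft were present in 23 of 89 Ly6d-positive cells (25.8%) and in 49 Ly6d-negative cells (45.8%). With 2 markers as the rule, the upper-follicle shares were 92.1% in Ly6d-positive and 82.2% in Ly6d-negative cells, and the matrix shares 60.7% and 72.0%, so that the upper-follicle share was then the larger in each set. The upper-follicle markers Krt17 and Lrig1 were common to the sets, in 78.7% and 87.6% of Ly6d-positive and 94.4% and 80.4% of Ly6d-negative cells. At least 3 hair germ markers were in 62.9% of Ly6d-positive and 98.1% of Ly6d-negative cells, at least 3 bulge markers in 91.01% and 96.3%, and at least 3 outer root sheath markers in 97.8% and 98.1%. As the classes overlapped in this way, the cells are named here by Ly6d alone.

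The list of differentiated interfollicular epidermis, the skin between follicles, had a median of 2.45 (1.68 to 3.73 by plate) over 4 expressed members of 8. All 4 of the list were higher, beside 4.22% of all expressed genes. At least 3 of its markers were present in 57 of 89 Ly6d-positive cells (64%) and 25 Ly6d-negative cells (23.4%). Of the Ly6d-positive cells, 46 had 3 markers of the upper follicle and 3 of the epidermis, 18 only the upper-follicle class, 11 only the epidermal class and 14 neither. Without the cells of the epidermal class, the higher lists had medians of 0.91 for the differentiated epidermis, 0.99 for the upper follicle, 0.59 for desmosomes, 0.73 for differentiation factors, 0.45 for the Ly6 family and 1.61 for MHC class I. The lower lists then had -0.41 for matrix and hair shaft, -0.89 for hair germ, -0.61 for WNT response, -0.71 for hedgehog response, -0.81 for FGF response and -0.96 for S phase. These 12 medians kept their sign and were nearer to 0 than with all cells, except that of S phase. The cells left out were chosen by markers of the differentiated-epidermis list, so the fall of that list's median was built in. Among the 24 genes with the largest differences Defb6 (0.99) and Fbln1 (-0.96) no longer reached 1. Krt10, the keratin of suprabasal layers, was seen in about the same share of the sets, in 56.2% of Ly6d-positive and 48.6% of Ly6d-negative cells. Its level was not alike, reaching 3707 TPM in Ly6d-positive cells and 31.7 TPM in Ly6d-negative cells (1.56, and -0.21 without the cells of the epidermal class, which Krt10 helps to define). Skint3, an immunoglobulin-family gene of keratinocytes, was in 33 of 89 Ly6d-positive cells and no Ly6d-negative cell. It thus counted as expressed through the Ly6d-positive set alone. Krtdap, a secreted peptide of differentiating keratinocytes, gave 3.38 on plate 920mat and 0.02 on 915mat. Genes of the cornified envelope were seen in few cells, more of them Ly6d-positive. Of their list of 15, 1 counted as expressed. At least 3 of the 15 were in 15 Ly6d-positive cells (16.9%, 9.75 to 26.3) and 2 Ly6d-negative cells (1.87%, 0.227 to 6.59). Ivl, its involucrin, was in 14 Ly6d-positive cells and 1 Ly6d-negative cell. Lor, its loricrin, which is in the differentiated-epidermis list, was in 7 and 4.

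Desmosomes hold differentiating layers together. Their list had a median of 1.34 (0.66 to 1.72 by plate). Of 10 expressed members 6 were higher and none lower by 1, beside 4.22% and 5.01% of all expressed genes. Pkp1, a desmosomal plaque protein, had a median of 74.5 TPM in Ly6d-positive cells and 26.3 TPM in Ly6d-negative cells (1.81). Perp, a desmosome protein and p53 target, stood at 551 TPM against 220.4 TPM (1.56), and Cdh1, E-cadherin, at 81.96 TPM against 35.02 TPM (1.53). The ranges of these genes overlapped. Of 6 expressed tight junction genes 3 were higher, Ocln at 1.81, Marveld2, a tricellulin, at 1.44 and Cldn1, a claudin, at 1.07, and the median was 0.66.

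The list of epidermal differentiation factors had a median of 1.14 over 14 expressed members of 15, with 8 higher, beside 4.22% of all expressed genes. Klf5 and Klf4, zinc-finger factors, gave 1.78 and 1.51. Ovol1, a zinc-finger factor of matrix and epidermis, was in 38 Ly6d-positive and 4 Ly6d-negative cells (1.43). Trp63, the master factor of stratified epithelium, was in 98.9% of Ly6d-positive and 99.1% of Ly6d-negative cells, at mean levels of 100.6 TPM and 135.5 TPM (-0.56).

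MHC class I genes, whose products show peptides to T cells, were higher as a list. All 11 were expressed and 10 were higher, beside 4.22% of all expressed genes, and the median was 2.31 (1.80 to 2.29 by plate). H2-K1 had a median of 316.6 TPM in Ly6d-positive cells against 35.2 TPM in Ly6d-negative cells (3.08), and H2-D1 193.8 TPM against 24.9 TPM (2.86). B2m, the shared light chain, gave 2.37, and Tap1, a peptide transporter, 2.31. Of the interferon response list, 3 of 11 members were expressed, 1 was higher (Ifitm3, 2.40), and the median was 0.23 (-0.14 to 1.07 by plate). Among relatives of Ly6d, Ly6g6c was in 30 Ly6d-positive and 4 Ly6d-negative cells (2.28). Lypd3, a surface protein of suprabasal cells, gave 2.19 and Ly6e 1.27, and the median of the 4 expressed members of 13 was 1.73. Of the 4, Ly6g6c, Lypd3 and Lypd6b reached 30% of cells only in the Ly6d-positive set, so the filter favoured a positive median.

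**Figure D3:**
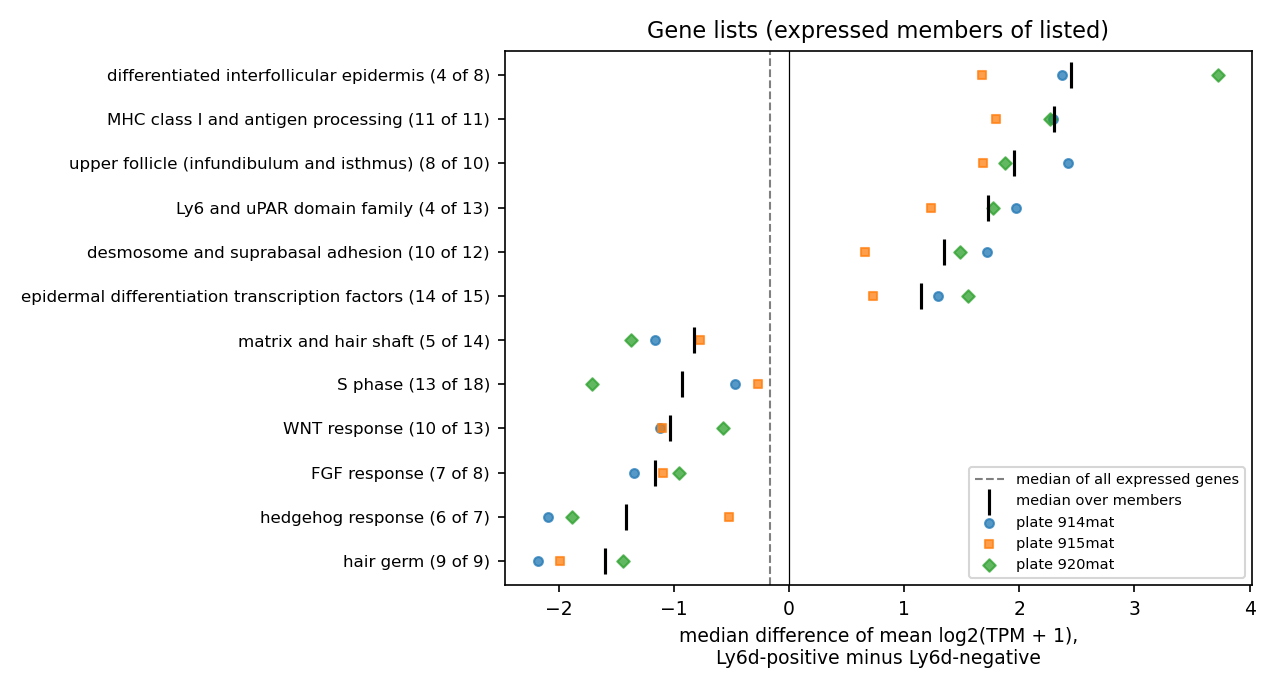
Median difference of mean log2(TPM + 1), Ly6d-positive minus Ly6d-negative cells, over the expressed members of 12 gene lists, as a bar for the median of the members' differences averaged over plates and a point for the median on each plate, with the median of all expressed genes dashed. The differentiation, MHC class I, upper-follicle and Ly6 lists lie above 0 on each plate, and the hair germ, signal response, matrix and S phase lists below it.

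Hair germ genes were lower in Ly6d-positive cells. Of 9 listed, all expressed, 7 were lower by 1 or more in all plates and 1 was higher, beside 5.01% of all expressed genes that were lower, with a median of -1.60 (-2.17 to -1.44 by plate). Lgr5, a stem cell receptor that amplifies WNT signals, ran from 0 to 216.5 TPM with a median of 0 in Ly6d-positive cells, and from 0 to 255.7 TPM with a median of 35.6 in Ly6d-negative cells. It was seen in 21.3% of Ly6d-positive and 72.9% of Ly6d-negative cells (-2.98), and its regulatory region also drives the reporter of the sort. Mfap2, a microfibril protein, was in 19.1% of Ly6d-positive against 75.7% of Ly6d-negative cells (-3.46). Foxi3, a factor of hair placodes, gave -1.94 and Runx1, a factor of follicle activation, -1.60. Fst, follistatin, which blocks activin and BMP ligands, went the other way at 1.84.

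Of 5 genes of the sort markers and reporter, 3 were lower by 1 or more, beside 5.01% of all expressed genes. These were Lgr5, Cdh3, P-cadherin, at -1.57, and Itgb1, integrin b1, at -1.22. Itga6, integrin α6, at 0.85 and Cd34 at -0.45 did not reach the size.

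Of the genes with the largest lower differences, Crip1 had a median of 0 TPM in Ly6d-positive cells against 238.5 TPM in Ly6d-negative cells, and was in 47.2% of Ly6d-positive against 91.6% of Ly6d-negative cells. Npnt, nephronectin, a ligand of integrins in the basement membrane, was in 34.8% of Ly6d-positive against 89.7% of Ly6d-negative cells (-3.53). Sparc, a collagen-binding protein, gave -3.32, and Fbln1, fibulin 1, -2.83. The amino acid transporters Slc38a4 and Slc7a2 gave -3.38 and -3.33, Atp6v1b1, a proton pump subunit, -3.01, Bnc2, a zinc-finger protein, -2.97, Dmd, dystrophin, -2.93, and Gja1, connexin 43, -2.75. Each of these genes was still present in some Ly6d-positive cells, from 17 of 89 for Slc38a4 and Slc7a2 to 58 of 89 for Dmd.

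Matrix and hair shaft genes had a median of -0.83 over 5 expressed members of 14. Lef1, the WNT effector of the matrix, was in 16.9% of Ly6d-positive and 63.6% of Ly6d-negative cells (-2.28), and Hoxc13, a factor for hair keratins, in 19.1% and 65.4% (-1.71). Krt35, a keratin of the forming shaft, was in 0 Ly6d-positive cells (0%, 0 to 4.06) and in 10 Ly6d-negative cells. Ovol1, of the same list, was the higher one and counted as expressed through the Ly6d-positive set alone. Lef1, Hoxc13 and Msx2 counted through the Ly6d-negative set alone, so the filter favoured a negative median. Msx2, in 11.2% of Ly6d-positive and 34.6% of Ly6d-negative cells, itself gave the median of -0.83. The inner root sheath keratins Krt71, Krt25 and Krt27 were in 4, 0 and 3 Ly6d-positive cells and in 2, 2 and 11 Ly6d-negative cells.

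Of 6 expressed hedgehog response genes, 5 were lower by 1 or more, with a median of -1.41, beside 5.01% of all expressed genes that were lower. Gli2 and Gli1, transcription factors of the pathway, gave -2.49 and -1.51. Ptch1, the hedgehog receptor, gave -1.24 but -0.02 on plate 915mat. FGF response genes had a median of -1.17 with 4 of 7 lower, among them Dusp6, a phosphatase of ERK (-1.80), and Etv4, an ERK-responsive factor (-1.59). WNT response genes were mixed: of 10 expressed, 5 were lower, and the median was -1.04. Axin2, a general WNT target, gave 0.02, Notum, a WNT-inactivating enzyme, -1.46, and Apcdd1, a WNT inhibitor, 2.05.

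Cdkn1a, the cell cycle inhibitor p21, was in 68.5% of Ly6d-positive cells with a median of 51.8 TPM, and in 25.2% of Ly6d-negative cells with a median of 0 TPM. Its difference was 3.30, while Cdkn1b, the related p27, gave 0.11, and the p53 targets Mdm2 and Ccng1 gave 0.12 and -0.10. Of 13 expressed S phase genes, 5 were lower by 1 or more, beside 5.01% of all expressed genes. The median of the 13 was -0.93 (-1.71 to -0.27 by plate, and -0.30 without plate 920mat). Mcm2, of the replicative helicase, gave -1.49, but -0.27 on plate 915mat. No gene of the G2/M list was expressed in 30% of either set, and Mki67, a marker of cycling cells, was in 8 Ly6d-positive and 17 Ly6d-negative cells.

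Among Ly6d-positive cells these genes differed with the level of Ly6d. All 6 cells under 10 TPM of Ly6d had Lgr5, Npnt and Mfap2, and none had Clca3a2, Defb6, Krt79, Gata6 or Cdkn1a. Of the 14 cells between 10 and 100 TPM, 7 had Lgr5, 2 had Clca3a2 and 6 had Cdkn1a. Of the 69 cells at 100 TPM or more, 6 had Lgr5, 2 had Mfap2, 59 had Clca3a2, 39 had Gata6 and 55 had Cdkn1a. The list of hair germ genes had a mean level of 4.26 log2(TPM + 1) under 10 TPM of Ly6d, 2.66 between 10 and 100, and 1.28 at 100 or more, with 3.31 in Ly6d-negative cells. The upper-follicle list had 1.49, 2.05 and 3.86 in the same order, with 1.56 in Ly6d-negative cells. The bins under 100 TPM hold few cells. The genes were chosen by their difference in these same cells, and most Ly6d-positive cells fall in the top bin. The pattern of that bin therefore followed largely from the choice. With Ly6d-positive set at 100 TPM or more, a threshold chosen after the values were seen, 548 genes were higher and 710 lower, of 8523.

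**Figure D4:**
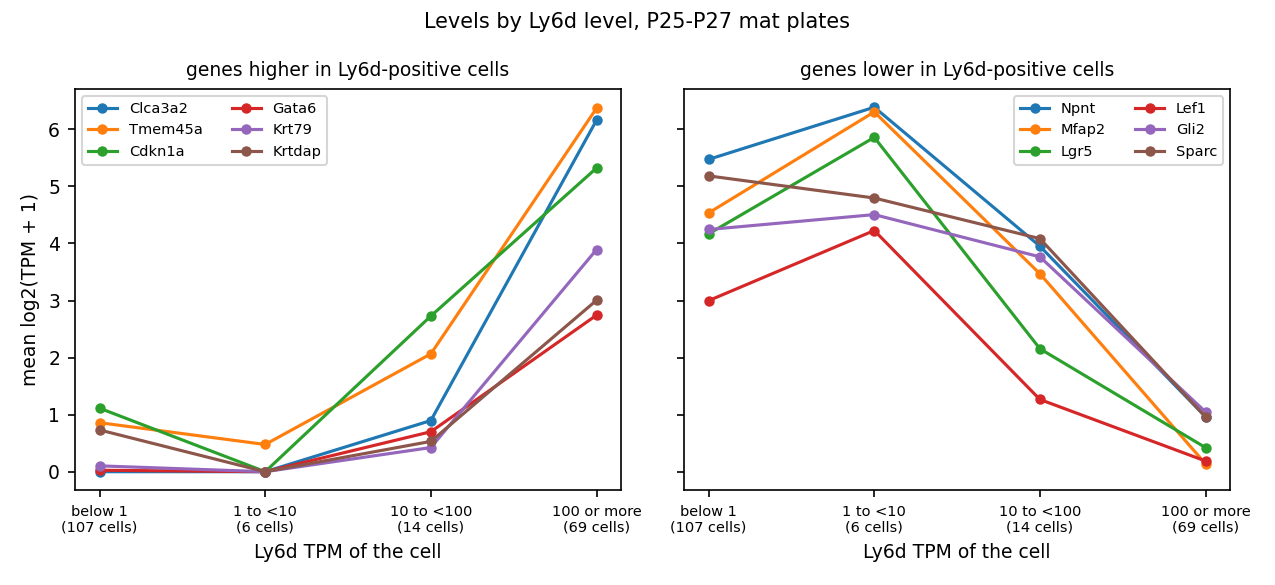
Mean log2(TPM + 1) of 6 genes higher and 6 genes lower in Ly6d-positive cells, by the Ly6d level of the cell, from below 1 TPM to 100 TPM or more (69 cells). In the 6 cells at 1 to under 10 TPM the lines of the higher genes lie near 0 and those of the lower genes above 4, and the order is turned round at 100 TPM or more.

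Lgr5 was set against a few other genes within Ly6d-positive cells. Clca3a2 was present in 4 of the 19 Ly6d-positive cells with Lgr5, and in 57 of the 70 without it. Gata6 was present in 2 of the 19 and in 40 of the 70. Mfap2 accompanied Lgr5 in 12 of the 19 and was in 5 of the 70. Krt79 and Defb6 shared 24 Ly6d-positive cells, with 7 having Krt79 alone and 8 Defb6 alone. Among Ly6d-negative cells, 13 of the 78 with Lgr5 had Plet1 and none had Clca3a2.

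Markers of cells from outside the epithelium were rare in either set. At least 3 of 10 fibroblast markers were in 1 Ly6d-positive and 6 Ly6d-negative cells, and at least 3 of 10 immune markers in 1 and 1. At least 3 of 8 melanocyte markers were in 3 Ly6d-positive and 2 Ly6d-negative cells, and at least 3 of 10 endothelial and muscle markers in 0 and 1. Corin, of the dermal papilla, and Cd3e, of T cells, were listed at 0 in all cells of the mat plates that were kept. Median summed levels of the fibroblast, immune and endothelial lists were 0 TPM in Ly6d-positive and in Ly6d-negative cells.

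The same split was then made in cells that the rule did not use, 1 plate each. The Ly6d-positive hair germ cells had less Ly6d, at medians of 104.1 TPM at P21 and 25.4 TPM at P23 to P24, against 596 TPM on the mat plates. In P30 hair bulb cells the median was 7.46 TPM. The P30 cells are of another strain and were deposited apart, so that level is not set against the others. Among the P30 hair bulb cells of plate P2-1 (13 Ly6d-positive, 68 Ly6d-negative), 10 of the 12 genes with the largest higher differences were higher by 1 or more, where 4.12% of 10729 expressed genes were. Clca3a2 gave 2.17, Tmem45a 2.28, Anxa8 2.48 and Dmkn 2.36, while Krt80 gave 0.70. Among the 13 Ly6d-positive cells, Clca3a2 was seen in 4, Tmem45a and Anxa8 in 5 each, and Dmkn in 7. Among the 68 Ly6d-negative cells these genes were seen in 0, 2, 2 and 6, so the differences rest on few cells. Of the 12 genes with the largest lower differences, 1 was lower by 1 or more (Sparc, -1.41), where 0.932% of all were. For 5 of these 12 (Npnt, Mfap2, Slc38a4, Atp6v1b1 and Lgr5) the mean log2(TPM + 1) of the Ly6d-negative P30 cells was itself under 1, so no such difference was possible. Lgr5 gave -0.28 and Npnt 0.90.

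In P21 hair germ cells (13 Ly6d-positive, 55 Ly6d-negative), 6 of the 12 higher genes were higher by 1 or more, where 13.7% of 10103 expressed genes were. Clca3a2 gave 2.32 and was in 4 of the 13 Ly6d-positive and 0 of the 55 Ly6d-negative cells. H2-Q7 gave 2.02 and was in 7 and 9 of them. None of the 12 lower genes was lower by 1 or more (1.69% of all were), and Npnt and Slc7a2 were higher, by 2.59 and 2.55. In P23 to P24 hair germ cells (10 Ly6d-positive, 58 Ly6d-negative), 1 of the 12 higher genes was higher by 1 or more (Gltp, 1.45), where 7.04% of 10417 expressed genes were. Of the 12 lower genes, 1 was lower by 1 or more (Lgr5, -1.01), where 2.53% of all were. These splits have no replicate check, and strain, age and plate differ from those of the mat cells.

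**Figure D5:**
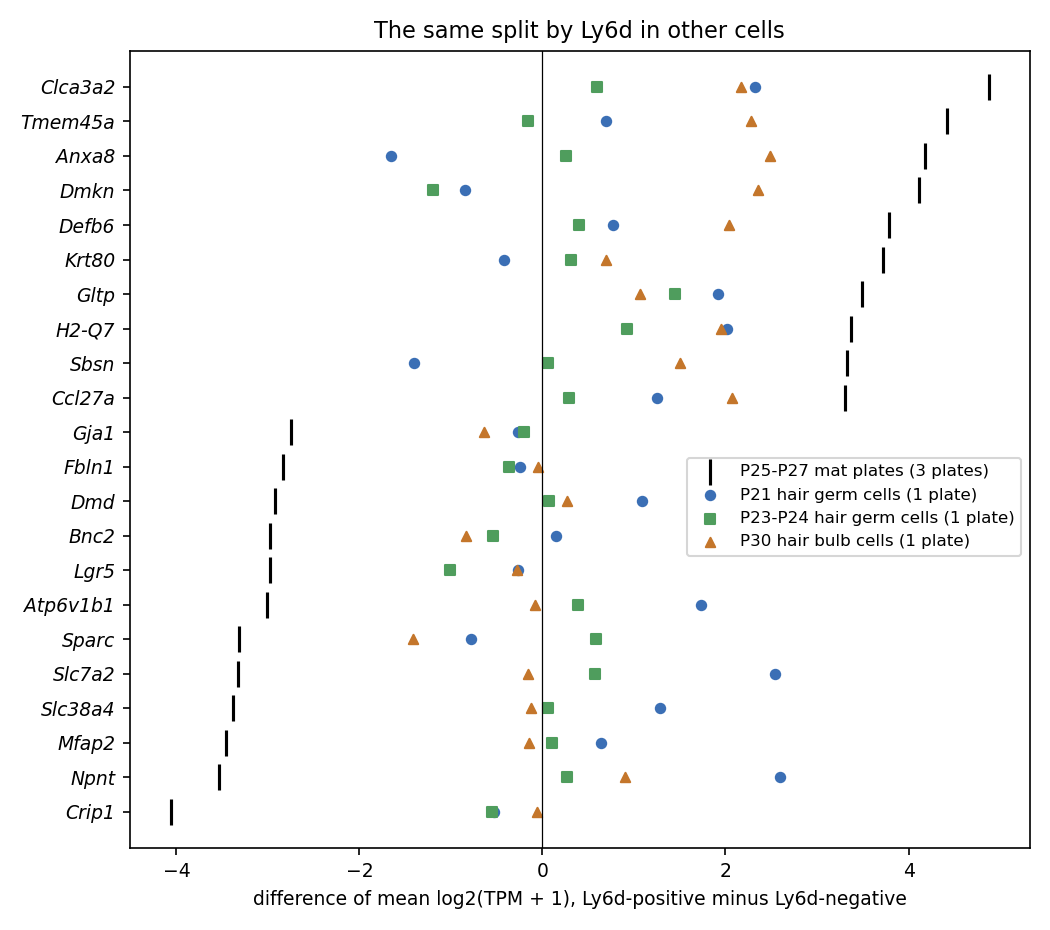
Difference of mean log2(TPM + 1), Ly6d-positive minus Ly6d-negative cells, for the same 22 genes on the mat plates (bars, mean of 3 plates) and in P21 hair germ, P23 to P24 hair germ and P30 hair bulb cells (points, 1 plate each). For the higher genes, 9 of 10 triangles of P30 cells lie at 1 or more, while for the lower genes 2 points of the other cells lie at -1 or below.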

How the data were processed

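Single cells were sorted into 96-well plates and sequenced by Smart-seq2, per the labels' protocols. Per the submitters' processing notes, Bowtie2 2.2.9, RSEM 1.2.30 and mm10 were used. The authors' deposited values are TPM, 46609 rows to a cell, and each column sums to about 1000000. All columns of the tables used matched a sample. The P30 dermal papilla table was not used here.

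Without spike-in (92), ribosomal RNA (360), mitochondrial (37) and Ly6d rows, a gene counted as expressed when 30% of the cells of either set had it at 1 TPM. Sizes were computed on log2(TPM + 1) within plates with numpy 2.4.6 and pandas 2.3.3, and share intervals with scipy 1.17.1 (Clopper-Pearson). The differences were tested by planting known folds in the real mat cells after shuffling the Ly6d labels within plates. The calls of genes and the list medians were not tested in this way. Read depth is unknown. Positions come from GENCODE M21.

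Named genes are the 12 with the largest difference in each direction and the same sign in 3 plates, without predicted models and pseudogenes, and up to 4 members of each of 12 described lists. Some genes and sequences under this rule are not reported here. Other list members named were chosen after their values were seen. Members and the 32 lists were chosen with earlier results of these data known. Alternatives changed plate weighting, pseudocount, scaling, the Ly6d threshold, filters on genes and cells, and left out each plate.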

Additional observations from a re-analysis of the deposited data

Results flagged for a closer look

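In 8 instances a named gene differed by 1 or more in the direction opposite to that on the mat plates when other cells were split by Ly6d, and none of these differences between cell groups was tested. In P21 hair germ cells Anxa8 gave -1.66 and Sbsn -1.41, where the mat plates gave 4.18 and 3.33. In the same cells Npnt gave 2.59, Slc7a2 2.55, Atp6v1b1 1.73, Slc38a4 1.28 and Dmd 1.09, where the mat plates gave -3.53, -3.33, -3.01, -3.38 and -2.93. In P23 to P24 hair germ cells Dmkn gave -1.20, where the mat plates gave 4.12. The median of all expressed genes was 0.32 in the P21 split and 0.14 in the P23 to P24 split.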

How the results depend on the processing

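Read depth is unknown and each set is 1 sample, so no error over animals can be given. Absence from a cell cannot be told apart from a transcript that was missed. No paired analysis was possible because each sample is 1 cell whose number pairs it with no cell of the other set. Differences were taken within plates, and pooling the plates turned no direction.

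Of the 12 described lists and 62 genes that the naming rule gave, 1 direction turned under the alternatives run, that of Krt10, at -0.21 without the cells with 3 epidermal markers, of which it is one. Other genes named were not run. The shares of genes higher and lower in Ly6d-positive cells (4.22% and 5.01%) were 8.67% and 14.9% with a pseudocount of 0.1, 0.878% and 0.629% with one of 10, and 6.36% and 9.31% after rescaling without ribosomal RNA, mitochondrial and spike-in rows. They were 6.43% and 8.33% with Ly6d-positive cells at 100 TPM or more, a setting chosen after the data were seen. With no filter on low genes they were 0.811% and 0.930%, as more genes were tested. The share lower was 3.42% with an adjustment for genes detected per cell. Leaving out a plate gave 4.2% to 5.53% higher and 5.54% to 7.93% lower. Leaving out cells with 3 epidermal markers gave 2.25% and 5.63%, and 36.5% of the genes higher and 53.6% of the genes lower with all cells remained past the size.

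With a pseudocount of 0.1, list medians moved outward to 3.59 for differentiated epidermis, 3.23 for the upper follicle, 2.46 for the Ly6 family, 2.89 for MHC class I, 1.96 for differentiation factors, -1.55 for matrix, -2.61 for hair germ, -1.86 for WNT, -2.55 for hedgehog, -2.18 for FGF and -1.47 for S phase. With one of 10 they were 0.85 for the upper follicle, 0.96 for the Ly6 family, 0.98 for MHC class I, 0.49 for differentiation factors, -0.28 for matrix, -0.76 for hair germ, -0.39 for WNT, -0.41 for FGF, -0.62 for hedgehog and -0.41 for S phase. After rescaling they were 2.53 for the upper follicle, -1.14 for matrix, -2.01 for hair germ, -1.38 for WNT and -1.62 for FGF. With Ly6d at 100 TPM or more they were 2.57 for the upper follicle, 2.76 for MHC class I, -2.10 for hair germ, -1.35 for WNT and -1.69 for FGF. Without the cells with 3 epidermal markers they were 0.91 for differentiated epidermis, 0.99 for the upper follicle, 0.59 for desmosomes, 0.45 for the Ly6 family, 1.61 for MHC class I, -0.41 for matrix, -0.89 for hair germ, -0.61 for WNT, -0.81 for FGF, -0.71 for hedgehog, 0.73 for differentiation factors and -0.96 for S phase. The S phase median ran from -1.35 to -0.30 when each plate was left out, with -0.30 without 920mat.

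With 2 markers in place of 3, classes held 92.1% of Ly6d-positive and 82.2% of Ly6d-negative cells for the upper follicle, 87.6% and 53.3% for differentiated epidermis, and 60.7% and 72.0% for the matrix.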
